A study of Capra hircus with 2 samples.

Results

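miR-199 and miR-214 are microRNA families associated with mesenchymal cells, and their names were examined in small RNA sequencing of goat endometrium. The members were the names in the deposited table of known miRNAs for miR-199a, miR-199b or miR-214, with any species prefix, arm or end annotation. The rule found 8 entries, which collapsed to 7 distinct names of the 587 distinct names in the table. The endometrium came from Xinong Saanen dairy goats, all 24 months old, multiparous, brought into oestrus together and mated naturally. Tissue from day 5 of pregnancy formed the pre-receptive group (P) and tissue from day 15 the receptive group (R). For either phase, RNA from 9 goats was combined in 3 pools and sequenced in 3 runs, which were deposited as 1 library, so each phase has 1 value per name, no spread between animals was measured, and every comparison is between 2 libraries and not between phases. Known names accounted for 1904242 reads of the R library, which is 45.0% of its clean reads, and for 4046632 reads of the P library, which is 75.1%. A total of 33 sequences appeared under 2 names, and their reads appeared to be divided between the names, since 56 of 61 values were whole reads (tolerance 0.001) when summed and 63 of 122 when read alone. Were each such sequence counted once, with its higher value, the shares would be 40.2% and 64.2%.

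Values are given as normalized expression (NE), the signal deposited by the authors, in which reads are divided by 1 size factor per library. Each R read counted as 0.860 NE and each P read as 1.16 NE, a ratio of 0.739. The study's methods define NE by the total of clean reads, which would give a ratio of 1.27, so the deposited values depart from that formula, and scaling by clean reads is used here as an alternative. The size factors thus set R values down and P values up, although R was the library with fewer clean reads. Any ratio of R to P rests on that scaling, whereas a ratio of 2 names inside a library does not, and the sequence and arm shares given further on are of the latter kind. Intervals are 95% exact (Clopper-Pearson, or exact conditional for odds ratios) and cover only the counting error of reads taken as independent. Reads copied by PCR are not independent molecules, so the intervals may be too narrow even for that.

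A miRNA hairpin is cut into a 5p and a 3p strand, either of which can be loaded into an Argonaute protein and pair with messenger RNAs through its seed, bases 2 to 8 from the 5′ end. A miR-199a hairpin and the miR-214 hairpin are processed from a common transcript antisense to the dynamin gene DNM3, whose transcription is driven by TWIST1 in mesenchyme, miR-199b lies antisense within DNM1, and many mammals carry a further miR-199a hairpin within DNM2, not linked to miR-214. In the mouse uterus, miR-199a is known as a repressor of the cyclooxygenase PTGS2 around implantation, and both families are studied in fibroblasts for their effects on matrix production.

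The 7 names stood for 3 strands of miR-199 and both strands of miR-214. Their sequences are shown because locus, arm and variant are read from single bases, and capitals mark the seed.

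oar-miR-199a-3p: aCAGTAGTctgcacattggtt
bta-miR-199a-3p_R-1_2ss20TC21TA: aCAGTAGTctgcacattggca
bta-miR-199a-3p_R+1_1ss7GT: aCAGTATTctgcacattggttaa
bta-miR-199b: cCCAGTGTttagactatctgttc
hsa-miR-199b-5p_R-1_2ss10TC17TC: cCCAGTGTtcagactacctgtt
hsa-miR-214-3p: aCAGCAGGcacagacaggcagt
hsa-miR-214-5p: tGCCTGTCtacacttgctgtgc

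In these names, R-1 and R+1 stand for 1 base fewer or more at the 3′ end than the known sequence, and ss for substitutions. Positions are counted from 1 at the 5′ end of the known sequence. The 5p name with substitutions differed from the known miR-199b-5p by T10C and T17C, both outside the seed. As background, these are the bases by which miR-199a-5p is told from miR-199b-5p, so this name is taken here, by its sequence, as the 5p strand of miR-199a. The files held no miR-199a-5p sequence to compare it with. The 3p names could not be assigned to a locus, because all miR-199 hairpins give the same 3p strand. Among the 3p variants, T20C and T21A lay at the 3′ end and left the seed as it was, and G7T changed the seed itself. The 7 names thus held 5 different seeds, and 0 other names of the table shared any of them.

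In the RefSeq goat annotation, MIR199A and MIR214 both lie within the span of DNM3 on chromosome 16, with 0 genes annotated between them, and MIR199B lies within DNM1 on chromosome 11. The goat annotation has 1 gene named MIR199A, none within DNM2. The deposited conservation table lists a miR-199a hairpin for 12 of 23 species, a miR-199b hairpin for 9 and a miR-214 hairpin for 7. It lists 2 miR-199a hairpins for human, mouse and pig, and 1 for cow, sheep and horse. Dog and platypus have miR-199 hairpins without a letter, and mouse and pig have 0 for miR-214. These counts are of listed names alone. Whether some reads of miR-199a strands come from a hairpin that is not linked to miR-214 is therefore not settled. The deposited target predictions cover 142 names, of which 0 were members.

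miR-199a-3p was among the most abundant miRNAs of both libraries, and the members spread over more than 3 orders of magnitude. Its NE was 82015 in R and 84822 in P, which ranked it 6 in R and 7 in P among all known names. It held 77.9% of the members' reads in R and 83.7% in P. The order of the 7 names by NE was therefore led by the 3p strand of miR-199 in both libraries, followed by the 5p strands of miR-199, then by miR-214, with the 3p variants last.

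miR-199b, the 5p strand of the DNM1 hairpin, had an NE of 15859 in R and 8477 in P. It was listed for 2 precursors with equal values, 7929 in R and 4238 in P per entry, and the entries were summed because their reads appeared to be divided between them. Across all names with 2 entries, 93 of 96 values came to whole reads when summed and 39 of 96 when an entry was read alone, within a tolerance of 0.001 reads. The 5p strand taken as miR-199a had an NE of 6004 in R and 7115 in P. The 5p strands of miR-199 thus moved in opposite directions on the NE scale, miR-199b with the higher value in R and the miR-199a strand with the higher value in P. With reads scaled in place of NE to clean reads, to all listed reads, or to listed reads without the most abundant name, both were higher in R, by unequal amounts.

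miR-214-3p, the major strand of its hairpin, had an NE of 1099 in R and 669 in P, from 1278 and 575 reads. Its partner miR-214-5p had an NE of 236 in R and 266 in P, from 275 and 229 reads. On the NE scale no direction was established for miR-214-5p, whose interval includes no difference, and the same 3 scalings placed both strands higher in R.

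The substitution variants of the 3p strand were rare. The variant with T20C and T21A had an NE of 23.2 in R and 31.4 in P, from 27 reads in each library. The variant with the seed change G7T had an NE of 13.8 in R and 14.0 in P, from 16 and 12 reads. Together the variants equalled 0.0451% of the 3p reads in R (0.0326 to 0.0607) and 0.0534% in P (0.0380 to 0.0731), and these intervals overlap. No difference between the libraries was detectable at this depth.

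**Figure D1:**
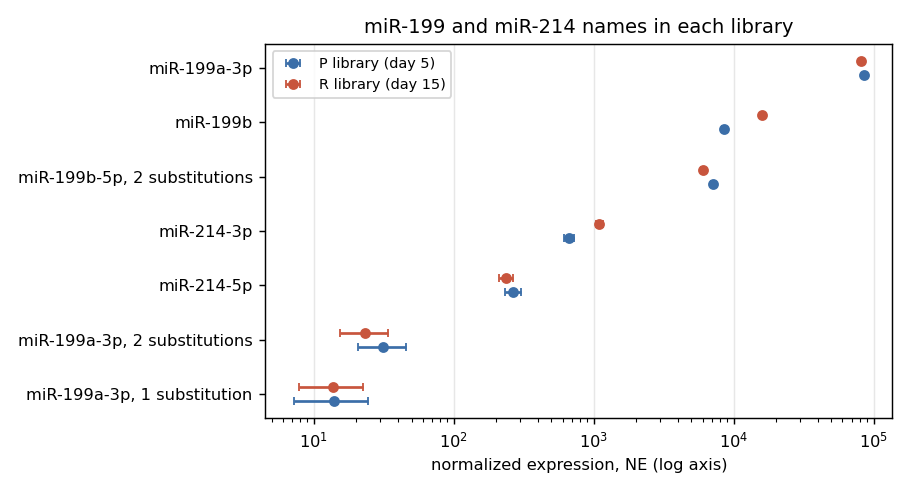
Normalized expression (NE, log axis) of the 7 miR-199 and miR-214 names in the P library (blue) and the R library (red), with 95% exact Poisson intervals of the counts where they are wider than the points. The miR-199b points (15859 in R, 8477 in P) and the miR-214-3p points (1099 and 669) stand apart, while those of miR-199a-3p (82015 and 84822) lie close together.

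None of the members passed 2-fold between the libraries on the NE scale: 0 of 7, where 39.0% of the 441 tested names did so in either direction, 22.7% higher in R and 16.3% lower. A name was tested when its NE was above 0 in both libraries and at least 1 in 1 of them, and all 7 members passed this filter. Under the full rule, which also asks for a Benjamini-Hochberg adjusted P-value under 0.05 in a two-sided Fisher's exact test against the remaining clean reads, 24.7% of tested names and 0 of the 7 members were called. This test takes equal shares of clean reads as no difference, which is not equal NE, and it called 75 names higher and 34 lower in R. An exact binomial test of equal NE called 70 higher and 48 lower, with 0 members among them, as none is past 2-fold. Among the 163 tested names with a mean NE of at least 100, 36.2% passed 2-fold, and 0 of the 5 members among them did. The members' median log2 ratio of R to P was -0.05, and that of all tested names was 0.02.

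Within that narrow range the members still differed from each other by more than the counting error of reads taken as independent. The log2 ratio was 0.90 for miR-199b (0.86 to 0.94) and 0.72 for miR-214-3p (0.57 to 0.86). It was -0.05 for miR-199a-3p (-0.06 to -0.03) and -0.24 for the miR-199a 5p strand (-0.29 to -0.20). For miR-214-5p it was -0.17, with an interval that includes 0 (-0.43 to 0.09), as did those of the variant with T20C and T21A, at -0.44 (-1.26 to 0.39), and of the variant with G7T, at -0.02 (-1.19 to 1.19). In order, miR-199b and miR-214-3p came at the top, with 74.6% and 69.4% of all tested names below them. Their intervals do not overlap each other or those of miR-199a-3p, miR-214-5p and the miR-199a 5p strand. The interval of miR-214-5p overlaps those of miR-199a-3p and the miR-199a 5p strand, and the variants' intervals are too wide to place them.

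**Figure D2:**
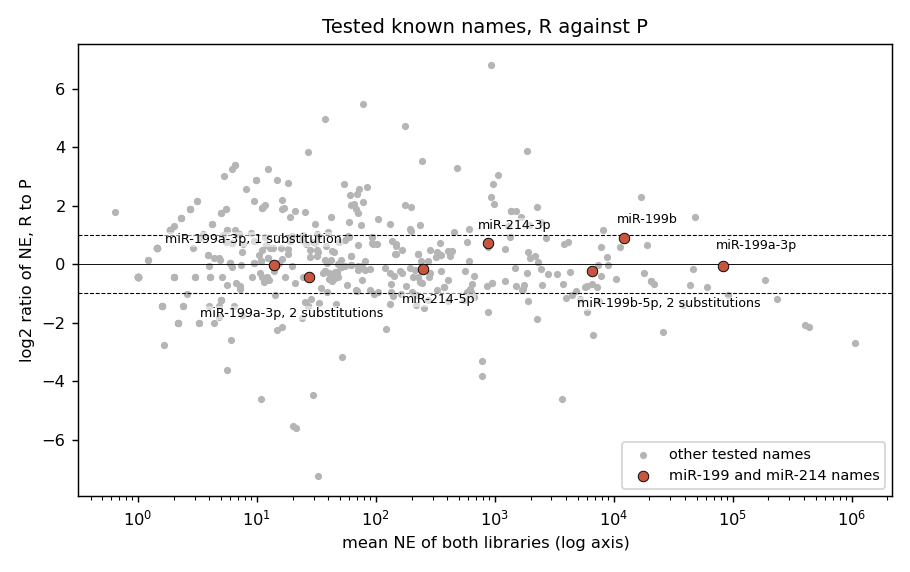
Log2 ratio of NE in R to NE in P against mean NE (log axis) for the 441 tested known names (grey) with the 7 miR-199 and miR-214 names in red; dashed lines mark 2-fold. All 7 red points lie between the dashed lines, from -0.44 to 0.90, under the deposited scaling.

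The scaling of the libraries decides the direction for most members. Relative to NE, scaling by clean reads moves every log2 ratio, and so the median of all names, by 0.78. Scaling by all listed known reads moves them by 1.52, by listed reads without the most abundant name (miR-143) by 1.08, and setting the median of all tested names to 0 by -0.02. With clean reads, 2 of 7 members were past 2-fold, miR-199b at 1.69 and miR-214-3p at 1.50, both higher in R, beside 44.4% of all tested names higher and 51.2% either way. With listed reads 7 of 7 were past 2-fold, all higher, beside 72.1% of tested names higher and 75.1% either way. Without miR-143 the count was 4, all higher, beside 53.7% higher and 58.3% either way, and with the median at 0 it was 0, beside 22.4% higher and 38.8% either way. As a share of the listed reads, miR-199a-3p made up 5.01% in R and 1.80% in P, although its NE was nearly equal. The direction of miR-199a-3p between the libraries was therefore not fixed by these data, and miR-199b and miR-214-3p were higher in R under all 5 scalings. The order of the members is the same under each scaling by construction, since a scaling moves every name alike.

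**Figure D3:**
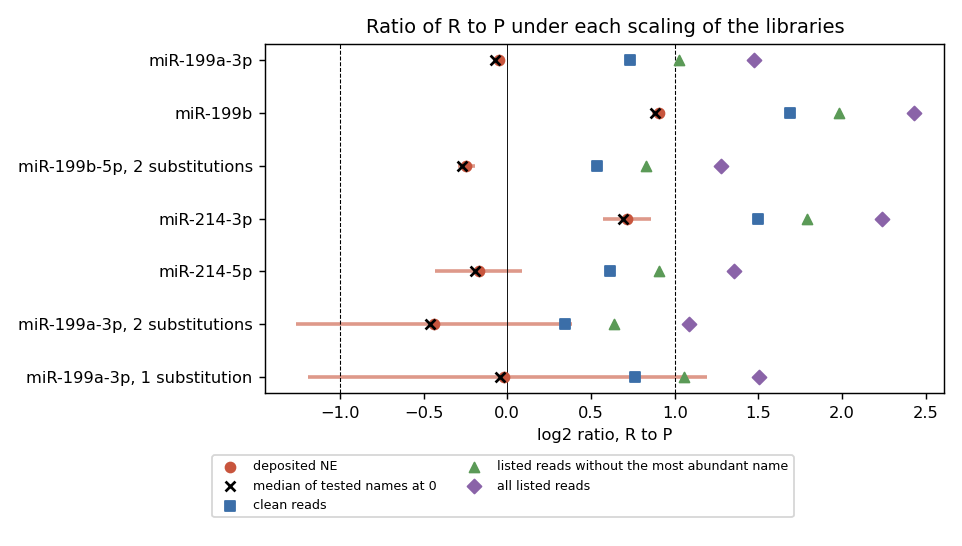
Log2 ratio of R to P for each member under 5 scalings of the libraries, with dashed lines at 2-fold and bars for the 95% exact interval under the deposited NE. Each scaling moves all members by the same amount, so that miR-199a-3p lies at -0.05 with NE and at 1.47 with all listed reads, while miR-199b stays to the right of every other member.

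The share of miR-199b sequence in the 5p reads of miR-199 can be read without any scaling. miR-199b held 72.5% of the 5p reads in R (72.0 to 73.1), 18443 reads against 6982 of the miR-199a strand. In P it held 54.4% (53.5 to 55.2), 7289 reads against 6118. The odds of a miR-199b read were 2.22 times as high in R as in P (2.12 to 2.32), a log2 odds ratio of 1.15. The balance of these 2 listed 5p sequences thus lay further towards miR-199b in the day 15 library. The sequences differ in length, with 23 bases for miR-199b and 22 for the miR-199a strand. In the paper, read lengths were distributed differently in the libraries, and the part of this in the share was not tested. With 1 entry of miR-199b in place of the sum, an alternative chosen after the data were seen, the shares were 56.9% in R and 37.3% in P, so that the miR-199a strand led in P, and the log2 odds ratio was again 1.15. Since the tissue was sequenced in bulk, a change in the number of cells of a type and a change in RNA per cell cannot be told apart here or in any other comparison.

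The 3p strand held most miR-199 reads in both libraries. Its share, variants included, was 79.0% in R (78.7 to 79.2) and 84.5% in P (84.2 to 84.7), a log2 odds ratio of -0.54 (-0.57 to -0.50). The contrast with each 5p strand shows where that shift lay. There were 13.7 reads of miR-199a-3p per read of the miR-199a 5p strand in R and 11.9 in P, a log2 odds ratio of 0.20 (0.14 to 0.25). Per read of miR-199b there were 5.17 in R and 10.0 in P, a log2 odds ratio of -0.95 (-0.99 to -0.91). With 1 entry of miR-199b these were 10.3 and 20.0 reads at the same log2 odds ratio, and the log2 odds ratio of the whole 3p share was -0.34 in place of -0.54. The lower 3p share in R thus came with more miR-199b reads per 3p read, while the miR-199a 5p strand changed slightly in the other direction. How many of the 3p reads came from each locus cannot be told apart.

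In the miR-214 hairpin the arms shifted the other way. The 3p arm held 82.3% of its reads in R (80.3 to 84.2) and 71.5% in P (68.3 to 74.6). The log2 odds ratio was 0.89 (0.59 to 1.19), with an adjusted P-value of 1.43e-08 in a two-sided Fisher's exact test over the 33 hairpins that had both arms named and at least 10 reads of each arm in each library. Such shifts were common among those hairpins: 45.5% had an adjusted P-value under 0.05, 11 of them towards the 3p arm in R and 4 towards the 5p arm, and 21.2% were past 2-fold, which miR-214 was not. The shift of miR-214 towards 3p was exceeded by that of 7 hairpins, and the median log2 odds ratio was 0.16. The miR-199 arms were not part of that comparison, because their 3p strand belongs to more than 1 hairpin and miR-199b is listed without an arm.

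**Figure D4:**
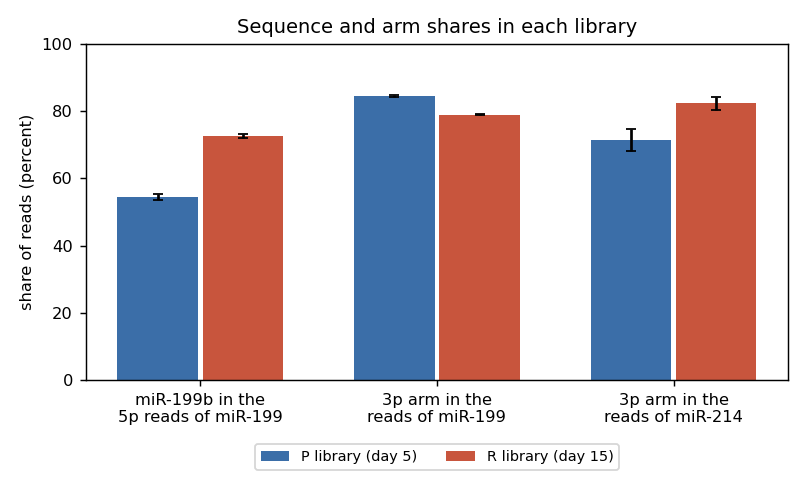
Share of reads in percent, with 95% exact intervals, in the P library (blue) and the R library (red): miR-199b in the 5p reads of miR-199, the 3p arm in all miR-199 reads, and the 3p arm in miR-214 reads. The miR-199b share (54.4% in P, 72.5% in R) and the miR-214 3p share (71.5% and 82.3%) are higher in R, and the miR-199 3p share (84.5% and 79.0%) is lower.

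**Figure D5:**
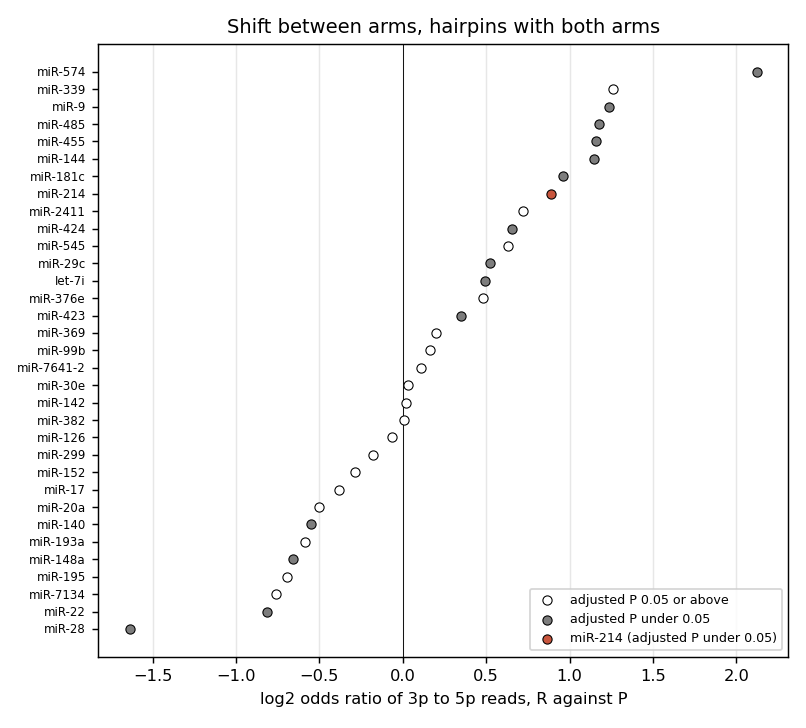
Log2 odds ratio of 3p to 5p reads in R against P for the 33 hairpins with both arms, in order; filled points have an adjusted P-value under 0.05 and miR-214 is red. miR-214, at 0.89, lies below 7 hairpins that shifted further towards the 3p arm.

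Strands of miR-199 and miR-214 were compared with each other in the same way. The 5p strands kept nearly the same proportion, with 25.4 miR-199a 5p reads per miR-214-5p read in R and 26.7 in P, a log2 odds ratio of -0.07 whose interval includes 0 (-0.34 to 0.19). The 3p strands did not, with 74.6 miR-199a-3p reads per miR-214-3p read in R and 127 in P, a log2 odds ratio of -0.77 (-0.91 to -0.62). miR-199b and miR-214-3p differed less, with 14.4 and 12.7 reads of miR-199b per read of miR-214-3p and a log2 odds ratio of 0.19 (0.04 to 0.34). With 1 entry of miR-199b these were 7.22 and 6.34 reads, with the same log2 odds ratio. In their ratio of R to P, miR-214-3p thus lay nearer to miR-199b than to miR-199a-3p or the miR-199a 5p strand. Nothing follows from this for single loci, since the miR-199a strands were not assigned to a locus. miR-3120, whose hairpin lies on the strand opposite miR-214, was seen in 1 read of each library. A run of 20 bases of its 22 matched the reverse complement of miR-214-5p, and a count of 1 in each library allows no comparison.

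Other names with a similar mean NE (within 2-fold) and the nearest log2 ratio were taken as the most like each member, over 2 libraries. For miR-199a-3p, with 5 names in that range, the nearest was let-7b at -0.17, and the next, miR-27b at -0.72 and let-7c at -0.79, lay far from it. For the miR-199a 5p strand, among 26 names, they were miR-99a at -0.28, let-7d at -0.33 and miR-23b-3p at -0.42. For miR-199b, among 19 names, they were the endothelial miR-126-5p at 0.64, the blood cell miR-142-5p at 1.17 and miR-126-3p at 0.58. For miR-214-3p, among 37 names, they were miR-455-3p at 0.76, miR-15a-5p at 0.58 and miR-301a-3p at 0.51, and for miR-214-5p, among 59 names, miR-140-5p at -0.19, miR-30c at -0.14 and miR-362-3p at -0.23. The remaining names in the level range of miR-199a-3p, given after their values were seen, were miR-26b at -1.07 and miR-22-3p at 1.60, so that names of its level lay on either side of it.

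Lists of miRNAs known from particular cell types were set beside miR-199 and miR-214. The summed NE of the 7 members was 105250.2 in R and 101394 in P, a log2 ratio of 0.05. This ratio was 0.84 with clean reads, 1.58 with all listed reads and 1.13 without miR-143. Most of the sum was miR-199a-3p, whose own log2 ratio on the NE scale was -0.05, while that of miR-199b was 0.90. Of the list for mesenchymal and matrix cells, with 13 of its 14 names tested, 1 was past 2-fold higher and 4 were past 2-fold lower. Of all tested names, 22.7% were past 2-fold higher, 16.3% lower and 39.0% either way. The median log2 ratio of the list was -0.55. The counts of the list were 3 higher and 2 lower with clean reads, 6 and 1 with all listed reads, and 5 and 2 without miR-143. Of all tested names, 44.4%, 72.1% and 53.7% were past 2-fold higher under these scalings, and 51.2%, 75.1% and 58.3% either way. The summed NE of the list was 309886 in R and 1893647 in P. Nearly all of it was miR-143, a miRNA of smooth muscle and fibroblasts, at 289634 in R and 1866274 in P. The log2 ratio of miR-143 was -2.69, below that of every member. Per miR-143 read there were 0.283 miR-199a-3p reads in R and 0.0454 in P, a difference that no scaling changes. The label of stromal fibroblasts rests on background, as no cell was identified in bulk tissue. Of the 13 tested mesenchymal names, 8 had a log2 ratio below that of every member, among them miR-145 at -2.42 and miR-152-3p at -0.84, but the list went both ways, with its more abundant miR-29a name at 0.57.

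Epithelial names were higher in R. Of the epithelial list, from which miR-200b was not listed, 9 of 10 tested names were past 2-fold higher and 0 lower, beside 22.7% of all tested names higher. With clean reads, all listed reads or without miR-143, 10 were higher, beside 44.4%, 72.1% and 53.7% of all tested names. With the median at 0, 9 were higher, beside 22.4%. The summed NE of the list was 34866 in R and 6726 in P. Its most abundant name was miR-141-3p, of the miR-200 family that maintains the epithelial state, at 28337 in R and 5791 in P, so that there were 2.89 miR-199a-3p reads per miR-141-3p read in R and 14.6 in P. Of the ciliated epithelium list, 3 of 5 tested names were past 2-fold higher and 0 lower, beside 22.7% of all tested names higher. With clean reads, all listed reads or without miR-143, 5 were higher, beside 44.4%, 72.1% and 53.7% of all tested names. The summed NE of this list was 4872 in R and 1234 in P, and miR-34c-5p led with 2778 and 1090.3. A further 3 of the 8 names of this list, all of miR-449, were at 0 in P and had 4, 14 and 1 reads in R. The more abundant miR-449a was seen in both libraries, with 2143 reads in R and 14 in P. Relative to the main epithelial miRNA, miR-199a-3p was thus lower in R, and relative to miR-143 it was higher.

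Striated muscle names were lower in R, with 5 of 6 tested names past 2-fold lower and 0 higher, beside 16.3% of all tested names lower. With clean reads, all listed reads or without miR-143, 4 were lower, and with all listed reads 1 was higher. Of all tested names, 51.2%, 75.1% and 58.3% were past 2-fold either way under these scalings. Most of those were higher, at 44.4%, 72.1% and 53.7% of all tested names, so that few were lower. The summed NE of the muscle list was 356 in R and 7393 in P, led by miR-133 at 289.8 and 7116. miR-133b and miR-206 were not listed under those names. miR-499 was listed as miR-499a, with its 5p strand at 63.6 in R and 130 in P. The endothelial miR-126 had 0 of 4 names past 2-fold on the NE scale, beside 39.0% of all tested names either way. With clean reads 3 were higher, beside 44.4% of all tested names higher. With all listed reads or without miR-143, 4 were higher, beside 72.1% and 53.7%. The summed NE of miR-126 was 32862 in R and 21303 in P, led by miR-126-5p at 23369 and 14956. Of the blood cell list, 2 of 7 tested names were past 2-fold higher and 0 lower, near the 22.7% of all tested names higher. Both were strands of the same miRNA, miR-142. With clean reads, with all listed reads or without miR-143, 4 of the list were higher, beside 44.4%, 72.1% and 53.7% of all tested names. The summed NE was 19682 in R and 17053.5 in P, and the most abundant name was miR-486-5p in P, at 5052 in R and 8073 in P, and miR-142-5p in R, at 11378.5 and 5047. Within this list, the erythroid miR-451 was listed only as a form with altered ends, with 2 reads in R and 1 in P. The myeloid miR-223 was listed only as a form with 1 substitution, with 1 and 0 reads, and miR-150 was not listed. The erythroid miR-144 was present, with 636 and 819 reads of its 5p strand and 589 and 342 of its 3p strand, as was miR-155-5p of leukocytes, with 1568 and 1901 reads. The sum of each list kept its direction under all 4 other scalings, but the median of the mesenchymal list turned from -0.55 to 0.23 with clean reads, 0.97 with all listed reads and 0.52 without miR-143. The part of these list differences in the values of miR-199 and miR-214 was not tested.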

How the data were processed

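Small RNA of goat endometrium was sequenced in 1 library of day 5 (P) and 1 of day 15 (R), each from 9 goats mixed into 3 pools and sequenced in 3 runs. After filtering and matching to miRBase 20.0, the authors deposited a normalized signal (NE) for each name and library. Reads were obtained as NE over the worth of 1 read, which is 0.860 NE for R and 1.16 NE for P, and rounded for tests. Of names with 1 entry, 84.1% of R values and 86.4% of P values were whole reads (tolerance 0.001), and the remaining ones are fractions. Values of the 54 names with 2 entries were summed. Labels were checked on the 340 names shared with the authors' differential expression table, whose values were equal with the same labels. Its fold ratios and P-values were not used, and neither was the table of predicted candidates. The deposited conservation and target tables were read for the presence of members alone.

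Log2 ratios of NE have 95% exact (Clopper-Pearson) intervals. A name was called when Fisher's exact test (two-sided, reads against the remaining clean reads), adjusted by Benjamini-Hochberg over 441 tested names, gave under 0.05 and the absolute log2 ratio was above 1. Shares were compared by odds ratios with exact conditional intervals, and arms by Fisher's exact test adjusted over 33 hairpins. In NE, 3 reads come to 2.58 for R and 3.49 for P. Named miRNAs were all members, the 3 nearest names in log2 ratio for each member with at least 100 reads per library, names sharing a seed, miR-3120, and the most abundant name (in P) of each of 6 lists of cell type miRNAs. miR-26b, miR-22-3p, miR-145, miR-152-3p, miR-29a, miR-142 in its list, miR-144, miR-155-5p, miR-451, miR-223, miR-449a, miR-499a and the names not listed were added after their values were seen. So were miR-21, miR-205-3p, miR-141-5p, miR-429 and miR-200c-5p. Names of the same miRNA with equal sequence were summed in lists and arms and counted once. The members and lists were chosen with earlier results of these data known. The alternatives tried were scaling by clean reads, by listed reads with and without the most abundant name, or to a median of 0, a pseudocount of 1, an exact binomial test, unadjusted P-values, other filters, counting by entry, unrounded reads, leaving out the variants, and another assignment of the 5p name. Tests used scipy 1.17.1 and numpy 2.4.6 under Python 3.11.15, tables pandas 2.3.3, and plots matplotlib 3.10.9.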

Additional observations from a re-analysis of the deposited data

How the results depend on the processing

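Of 49 log2 ratios recomputed for the members, 28 kept their direction and their side of the limits. Of these, 14 were set to a median of 0 or had a pseudocount of 1. The other 14 came from an exact binomial test on NE or unadjusted P-values, which leave a ratio as it is by construction and bear on the call alone. With clean reads, the ratio reversed to 0.73 for miR-199a-3p, 0.54 for the miR-199a 5p strand, 0.61 for miR-214-5p, 0.35 for the variant with T20C and T21A and 0.76 for that with G7T. With all listed reads these were 1.47, 1.28, 1.35, 1.09 and 1.50, and with listed reads without the most abundant name 1.03, 0.83, 0.90, 0.64 and 1.05. miR-199b passed the limits in the same order of scalings at 1.69, 2.43 and 1.98, and miR-214-3p at 1.50, 2.24 and 1.79. These shifts follow from the scalings themselves, each of which moves every name alike.

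Members past 2-fold numbered 2 with clean reads, 7 with all listed reads and 4 without the most abundant name, and 0 with other filters, with entries counted or without the 3p variants. The share of all tested names past 2-fold was 75.1% with all listed reads and 38.8% to 58.3% with the other scalings. With 1 entry of miR-199b, added after seeing the data, its share of the 5p reads was 56.9% in R and 37.3% in P, and the 3p share of miR-199 was 85.5% in R and 88.2% in P, since fewer 5p reads are counted. Reads of miR-199a-3p per read of miR-199b were then 10.3 and 20.0, and of miR-199b per read of miR-214-3p 7.22 and 6.34, and the log2 odds ratio of the 3p share was -0.34. Counting each sequence once would move the listed-read ratios by -0.06. The miR-199 arm share without the variants and the miR-214 arm share from unrounded reads stayed within their intervals. Counting the 5p name with substitutions as miR-199b leaves no second locus, so that alternative gave no value.

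With 1 pooled library per phase, there was no replicate to leave out, and animals, pools and sequencing runs cannot be told apart from the phases. Depth limits the rare variants, whose log2 intervals run from -1.26 to 0.39 and from -1.19 to 1.19. Which scaling fits the RNA content of the tissue was not tested. The loci of the 3p reads cannot be told apart.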
